A study of Bos taurus with 18 samples.

Results

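Whole-genome bisulfite sequencing of bull sperm was used to ask how DNA methylation is arranged on the unplaced contigs of the cattle genome, the assembled pieces that carry no chromosome assignment. A tile of 2000 bp was kept when 9 or more of the 18 bulls listed at least 1 CpG position in it. By this rule 2863 tiles on 1324 contigs were described, of 1186985 tiles in the whole genome, and they were compared with 1176978 autosomal tiles kept by the same rule. A further 2043 contig tiles were listed in fewer files, so that 4906 tiles on 2597 contigs had a position in at least 1 bull.

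All samples were sperm of Holstein bulls, with no treatment, and each bull was sequenced once. By the labels, gestation length (GL) contrasts 4 high with 4 low bulls. The remaining contrasts are of 3 high with 3 low bulls, for the conception rates of sires (SCR) and of cows (CCR), for body depth (BDE) and for the calving ease of sires (SCE). The bulls of a pair of groups differ by the bull's evaluation for the trait, some bulls belong to groups of several traits, and H04 and L04 carry none.

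Most CpGs of mammalian sperm DNA are methylated, and the exceptions are chiefly CpG-rich promoters and some repeats. Satellite DNA consists of long arrays of a short unit repeated head to tail, gathers around centromeres, and is poorly assembled because its copies resemble each other. Unplaced contigs often hold such sequence, and reads from copies that the assembly lacks can then be mapped onto the few copies it has. In cattle several satellite families are known, some of them built from units of 23 bp or 46 bp, and satellite DNA of bull sperm is known to carry less methylation than that of somatic cells. No sequence of the UMD 3.1 contigs was read here, so no tile was assigned to a family, and no gene annotation was placed on the contigs.

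The methylation of the contigs fell into separate levels. Averaged over the bulls that listed them, 864 of the 2863 contig tiles lay under 20%, 246 lay between 40% and 50%, and 763 lay above 90%. Of the autosomal tiles 60.6% lay above 90%, against 26.7% of the contig tiles. The lowest levels, from 0 to 20%, held 1.98% of the autosomal and 30.2% of the contig tiles. The median tile was at 49.8% on the contigs (quartiles 17.2% and 90.9%) and at 92.1% on the autosomes (quartiles 84.5% and 94.9%). The contigs thus held many tiles at both ends of the scale and a further group in the middle.

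**Figure D1:**
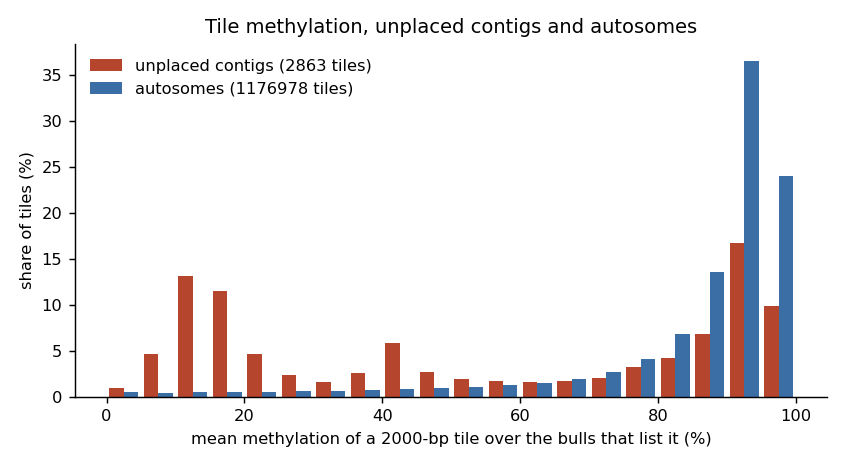
Share of tiles (y axis, %) by mean methylation over the bulls that list the tile (x axis, %, bins of 5 points) for 2863 contig tiles and 1176978 autosomal tiles. The contig tiles gather at 10 to 20%, at 40 to 45% and above 80%, and the autosomal tiles gather above 80%.

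Within each bull the contigs were less methylated than the autosomes. The bulls' mean over contig tiles ranged from 48.6% in H01 to 63.4% in H06, with a mean of 56.7% ± 4.40 (SD, n = 18). Their mean over autosomal tiles ranged from 82.1% in L06 to 86.9% in L03. The ranges of the 18 bulls did not overlap. The contigs were lower by 28.6 points on average, from 22.0 to 36.9 points, and lower in 18 of 18 bulls (permutation test flipping the sign of each bull's difference, two-sided, p = 2e-05, the smallest that 100000 resamples can give; Benjamini-Hochberg adjusted p = 3.5e-05 over 7 measures). The adjustment also counted listed positions per tile and read depth, which are given below with no test.

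Low and intermediate tiles both made up more of the contigs than of the autosomes. Tiles under 20% were 17.8 to 34.5% of a bull's contig tiles and 1.99 to 3.81% of its autosomal tiles, a mean difference of 25.03 points (higher in 18 of 18 bulls, same test, adjusted p = 3.5e-05). Tiles from 20 to 80% were 26.1 to 36.6% on the contigs and 14.7 to 23.1% on the autosomes, a difference of 12.5 points (higher in 18 of 18 bulls, adjusted p = 3.5e-05). Neither pair of ranges overlapped.

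Contig tiles were also more densely listed than autosomal tiles. A listed contig tile held 18.6 to 41.9 positions per bull and a listed autosomal tile 3.36 to 21.4, a difference of 15.96 positions, and it was higher in 18 of 18 bulls. Tiles were chosen by their listed positions, so this is given as a description with no test. When autosomal tiles were weighted to the contig tiles' numbers of files and of listed positions, the autosomal mean was 75.3% and the contigs were lower by 18.5 points. The contigs remained lower in 18 of 18 bulls under this weighting.

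The contigs' mean also moved with which contigs a file listed. Of the bulls, 8 listed between 1741 and 2129 contigs (H01, H02, H03, H04, H05, H09, L04 and L09), and the other 10 listed between 289 in H07 and 1050 in L05. The total of listed positions did not separate these bulls, since it ran from 2858992 to 16641749 in the 8 bulls and from 4598178 to 22048556 in the 10. Over contig tiles the 8 bulls had means of 48.6 to 54.8% and the 10 bulls 55.7 to 63.4%, so the ranges were apart. Over the 368 contig tiles listed in all 18 files the ranges were 68.1 to 71.0% and 66.5 to 71.6%, and they overlapped. On those tiles the contigs were still lower than the autosomal tiles listed in all 18 files, by 16.2 points in the mean and in 18 of 18 bulls.

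**Figure D2:**
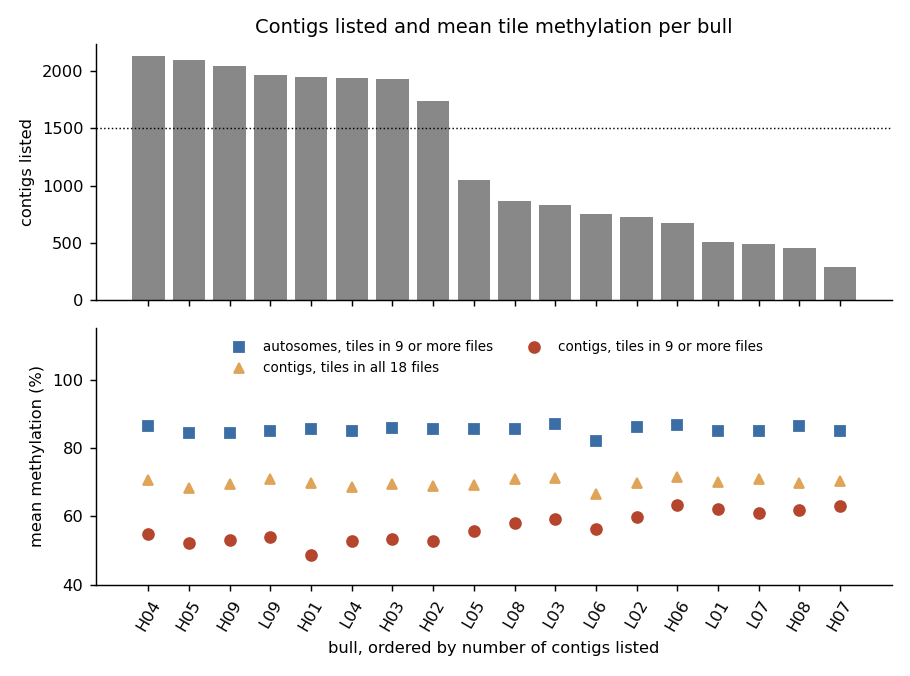
Contigs listed in each bull's file (top, number; dotted line at 1500) and mean tile methylation (bottom, %) of autosomal tiles, of contig tiles in 9 or more files and of contig tiles in all 18 files, with bulls ordered by the number of contigs listed. The means over contig tiles in 9 or more files are 48.6 to 54.8% in the 8 bulls on the left and 55.7 to 63.4% in the 10 on the right, whereas those over tiles in all 18 files stay between 66.5 and 71.6%.

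In the 10 bulls with fewer contigs, contigs were mostly listed or missing as wholes. Of 408 contigs that had 20 or more listed positions in each of the 8 bulls, H07 listed no position on 298, L01 none on 230, H08 none on 221 and L07 none on 212. By this choice no contig could be missing or partly listed in the 8, so the counts describe the 10 only. L05 lacked the fewest, 89, followed by L03 with 109 and L08 with 110. Partly listed contigs were rare: between 0 and 22 of the 408 had 1 to 19 positions in any of the 10 bulls. On those of the 408 that a bull did list, the median number of positions was 43 to 64 in the 10 bulls. In the 8 it was 52 to 58.5, but there 20 or more positions were required, so the groups cannot be compared. Missing contigs were spread over sizes, with 46.7% of bull and contig pairs missing for contigs whose last listed position lay within 2 kb, 45.1% for those over 2 to 10 kb and 18.5% for those over 10 kb. The cause of these gaps was not tested. All 3 high SCR bulls belong to the 8 and none of the 3 low SCR bulls do, so any SCR difference in which contigs were listed cannot be told apart from it.

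Reads were deeper on the contigs. Read counts per position, from 10 to 100, were deposited for 6 bulls. Their mean per position was 25.8 reads in L01, 27.5 in H02, 27.9 in H03, 28.1 in L02, 29.1 in L03 and 31.3 in H01 on the contigs, and 12.7 to 13.3 on the autosomes. The ranges did not overlap, and the contigs had 12.86 to 17.98 more reads per position in 6 of 6 bulls. Positions with 50 or more reads were 14.1 to 19.5% of contig positions and 0.672 to 1.84% of autosomal positions. A position was listed only at 10 or more reads, and tiles were chosen by their listed positions. Both depth measures are therefore given as descriptions with no test.

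Methylation was lower at deeper positions of the contigs. At 10 to 14 reads the mean methylation of contig positions was 40.9% in H01 and 60.01 to 72.02% in the other 5 bulls. At 50 to 100 reads it was 16.2 to 27.8%. Autosomal positions showed the same order, with 83.7 to 85.6% at 10 to 14 reads and 15.7 to 18.5% at 50 to 100 reads, although only a small share of them was that deep. With only positions under 20 reads, the contigs of the 6 bulls averaged 56.8% over tiles against 85.8% on the autosomes, a difference of 29.05 points. Without that maximum it was 29.9 points in the same bulls.

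The spacing of CpGs, taken from the positions alone and without the methylation values, divided the contig tiles. Adjacent positions were merged into CpGs over all files, and the distances between CpGs of a tile were counted. Of 1862 contig tiles with 20 or more CpGs, 426 on 414 contigs had CpG pairs concentrated at multiples of about 23 bp and 194 on 118 contigs at multiples of 46 bp. A tile was given a spacing where the pairs at the first 4 multiples were at least 3 times as frequent as at the average distance. Of the autosomal tiles with 20 or more CpGs, 0.419% had the first spacing and 0.109% the second, against 22.9% and 10.4% on the contigs. The spacings were looked for after values had been seen, and what follows on them is a description with no test.

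**Figure D3:**
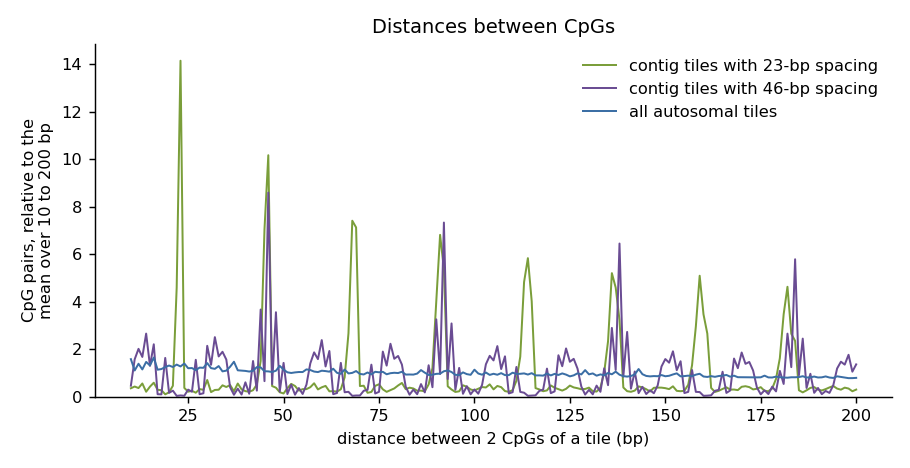
CpG pairs at each distance (x axis, bp), relative to the mean over all distances counted (y axis), in contig tiles with 23-bp spacing, contig tiles with 46-bp spacing and all autosomal tiles. The first class peaks at 23, 46 and about 68 bp, the second at 46, 92, 138 and 184 bp, and the autosomes show no such peaks. Both contig classes were selected for these distances and the autosomal tiles were not, so the contrast follows from the selection.

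Tiles with 23-bp spacing were low in every bull. With each tile averaged over its bulls, the median of the 426 tiles was 15.6% (quartiles 13.3% and 17.9%), and 381 of the 426 lay under 20%. The bulls' means over these tiles ranged from 14.3% in L04 to 19.5% in L01, with a mean of 16.3% ± 1.64 (SD, n = 18). They were the deepest tiles, with a median of 42.3 reads per position in the 6 bulls with counts. Single positions were low as well: of 14117 positions listed in 9 or more bulls in these tiles, 42.5% were under 10% and 32.3% between 10 and 20%.

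Tiles with 46-bp spacing lay at an intermediate level. The median of the 194 tiles was 42.9% (quartiles 40.9% and 44.4%), and 188 of them were between 30 and 50%. They held a median of 110.5 CpGs per tile and 24.7 reads per position. In 17 bulls that listed at least 30 of these tiles the mean ranged from 37.4% in L07 to 46.4% in L08 and averaged 41.9% ± 2.85 (SD, n = 17). L03 stood apart, since it listed only 3 of the 194 tiles, at 12.9%, although it listed more of the 23-bp tiles (342) than 7 of the other 9 bulls with few contigs. The means of these 17 bulls lay above all bulls' means over the 23-bp tiles, but single tiles of the classes overlapped, since 46-bp tiles ran from 5.56 to 58.1% and 23-bp tiles from 4.87 to 95.4%.

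**Figure D4:**
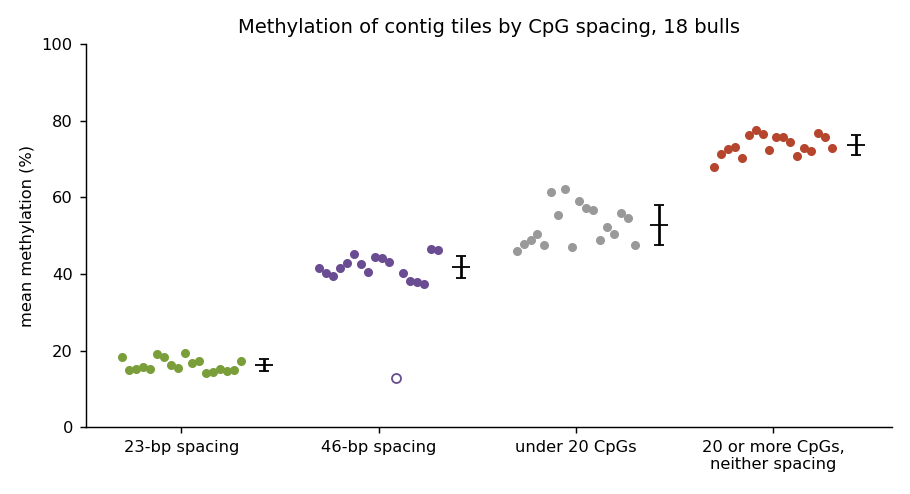
Mean methylation (y axis, %) of contig tiles of each spacing class in each of the 18 bulls (points, in the order H01 to L09), with the mean ± SD over bulls beside them (black). The open point is L03, which listed 3 tiles of the 46-bp class and is left out of that class's mean; the 23-bp tiles lie between 14.3 and 19.5% and the 46-bp tiles of the other 17 bulls between 37.4 and 46.4%.

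Autosomal tiles of the same spacing had medians near those of the contigs where they held many CpGs. Among autosomal tiles with 30 or more CpGs and the 23-bp spacing there were 333, with a median of 16.9% (quartiles 13.9% and 19.5%) and 39.2 reads per position. With 60 or more CpGs and the 46-bp spacing there were 45 autosomal tiles, with a median of 43.6% (quartiles 39.9% and 47.5%). With at least 30 CpGs and a ratio of 5 or more, 4 autosomal tiles with 46-bp spacing had a median of 5.52%, and no contig tile of that spacing reached this ratio. The contig tiles with at least 30 and 60 CpGs and a ratio of 3 or more had medians of 15.6% (334 tiles) and 42.7% (172 tiles). With 20 CpGs as the minimum, most autosomal tiles of either spacing were highly methylated, with medians of 91.0% and 91.5%. Their median ratios were 3.42 for 23 bp and 3.31 for 46 bp, beside 6.23 and 3.47 on the contigs. They held medians of 23 and 22 CpGs, beside 36.5 and 110.5 on the contigs. Tiles of these spacings at these levels were thus also found on the autosomes.

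The tiles with neither spacing held most of the high levels. The 1242 contig tiles with 20 or more CpGs and neither spacing had a median of 89.9%, and 802 of them lay above 80%. Their bulls' means were 68.0 to 77.5%, and their median depth of 11.9 reads was close to the 11.8 reads of such autosomal tiles. The 1001 tiles with fewer than 20 CpGs were spread widely, with quartiles of 16.7% and 82.1%. Without the tiles of both spacings the contigs were still lower than the autosomes, by 20.1 points in the mean and in 18 of 18 bulls.

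Within the 46-bp class, methylation depended on where a CpG lay in the repeated unit. For each of 14 contigs with 150 or more positions in such tiles, positions were sorted by their remainder on division by 46. That remainder gave an adjusted R2 between positions with a median of 0.695, from 0.363 in chrUn_GJ059982 to 0.910 in chrUn_GJ059673. For each of the 14 it was higher at 46 than at any other length from 40 to 52 bp, where the median of the highest R2 was 0.040. These positions share reads and neighbours and are not independent, so no p is given.

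The contig with the most such positions, chrUn_GJ059909, shows the pattern. It was listed by 15 bulls, with 650 positions in 9 or more of them, and has 5 tiles, all with the 46-bp spacing. Positions at offset 14 averaged 68.5% (35 positions, lowest bull 62.05%, highest 81.1%). Positions at offset 30 averaged 13.99% (37 positions, lowest bull 11.7%, highest 19.99%), and those at offset 31 averaged 14.3%. The ranges of the 15 bulls that listed the contig did not overlap between offsets 14 and 30. Most other offsets lay between these, such as offset 17 with the most positions (50 positions, 52.1%) and offset 19 (47 positions, 43.1%). Over all 7101 positions in tiles with 46-bp spacing, 14.4% were at 30 to 40%, 22.6% at 40 to 50% and 12.5% at 50 to 60%, beside 17.01% at 10 to 20% and 11.7% at 70 to 80%. The offsets are counted from the contig's own coordinates, and their origin has no meaning.

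**Figure D5:**
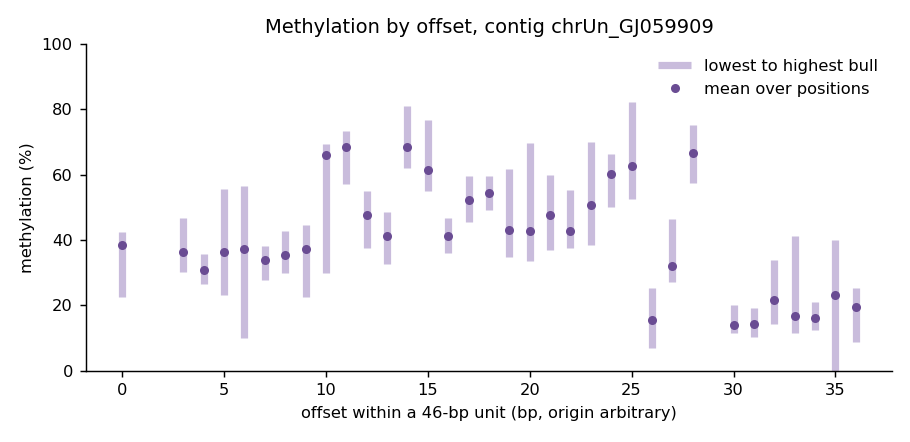
Methylation (y axis, %) of positions of contig chrUn_GJ059909 by their offset within a 46-bp unit (x axis, bp, arbitrary origin), for offsets with 3 or more positions. Points are means over positions and bars run from the lowest to the highest bull; offsets 30 and 31 lie near 14%, and offset 14 lies at 68.5%.

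The long contigs resembled the autosomes. The contigs with the most tiles were chrUn_GJ058422 with 87, chrUn_GJ058430 with 84, chrUn_GJ058425 with 81, chrUn_GJ058444 with 68 and chrUn_GJ058435 with 56. Bulls ranged from 82.3 to 87.2% on chrUn_GJ058422 with a median of 84.6%, and from 79.5 to 94.4% on chrUn_GJ058435 with a median of 85.7%. The means of these 5 contigs lay between 84.5 and 85.7%, and their depth between 11.5 and 12.1 reads. Among 14 contigs whose last listed position lay beyond 50 kb, the median was 84.8% and 12 were above 80%. Among 972 contigs within 2 kb the median was 16.2%, 654 were under 20%, and the depth was 36.0 reads. These short contigs held 387 of the 426 tiles with 23-bp spacing. When each contig and each autosome was counted once, instead of each tile, the contigs were lower by 53.7 points.

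Of the long contigs only chrUn_GJ059322 was low. It has 29 tiles and a last listed position of 59779. Over 17 bulls its mean ranged from 7.19% in L09 to 20.9% in L02, with a median of 15.1% and a mean of 14.9% ± 3.85 (SD, n = 17). Its tiles had a median of 10.9%, 22 of the 29 lay under 20% and 27 under 30%, and the highest was at 35.8%. Its depth was 11.3 reads, close to that of the long methylated contigs. It held 15.9 CpGs per tile on average, so that spacing could be scored in only 9 of its 29 tiles, none of which had the 23-bp or 46-bp spacing.

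Of the contigs with at least 5 tiles, of which there were 102, other low ones were short. The lowest, chrUn_GJ059428, had a mean of 5.50% ± 1.35 (SD, n = 14), from 2.99% in H02 to 8.14% in H05, in 5 tiles that all lay under 20%. All 5 tiles of chrUn_GJ059858 had the 23-bp spacing, and its mean was 6.27% ± 1.19 (SD, n = 13). The means of chrUn_GJ059936 and chrUn_GJ059964 were 14.9% and 16.3%. At the other end, the 5 highest contigs had means of 94.7 to 96.0%, led by chrUn_GJ059484 at 96.0% ± 1.52 (SD, n = 15). L06 was the lowest bull on chrUn_GJ059484 and on chrUn_GJ060138, as it was on the autosomes.

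The deepest contigs were low or intermediate. The 5 with the most reads among those with at least 5 tiles had 29.1 to 36.5 reads per position. chrUn_GJ058446 (36.5 reads) averaged 45.6%, from 37.4% in H02 to 58.4% in L03. chrUn_GJ059614 (35.2 reads) averaged 19.2% and chrUn_GJ058447 (32.8 reads, 18 tiles) 22.83%. chrUn_GJ059984, with 13 tiles and 29.1 reads, averaged 45.9% ± 3.36 (SD, n = 18), from 39.5% in L06 to 52.4% in L03. Of these, chrUn_GJ059909 had the 46-bp spacing in all 5 of its tiles. In chrUn_GJ058446 only 1 of 8 tiles, and in chrUn_GJ059984 only 5 of 13, held the 20 CpGs needed to score the spacing, and none of those scored had it. All 5 tiles of chrUn_GJ059614 and 8 of 18 tiles of chrUn_GJ058447 were scored, and none had either spacing.

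Single tiles reached near 0. The lowest member tile lay on chrUn_GJ059985 from 2001 to 4000, at 1.23% ± 0.90 (SD, n = 10), with bulls from 0.190 to 3.22%. The next were on 2 long methylated contigs: chrUn_GJ058435 from 70001 to 72000, at 1.68% ± 1.29 (SD, n = 16), and chrUn_GJ058422 from 116001 to 118000, at 1.87% ± 1.52 (SD, n = 14). These tiles held 56, 95 and 43 CpGs. A tile of chrUn_GJ057642 from 1 to 2000 averaged 2.19% but rested on 2 CpGs, with a median of 0 and 1 bull at 21.9%. A tile of chrUn_GJ057777 from 1 to 2000 averaged 2.25% ± 0.71 (SD, n = 10).

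The spread between bulls was compared on tiles listed in all 18 files. Over the 368 contig tiles listed in all 18 files the median SD between bulls was 3.96 points, and over the autosomal and X tiles listed in all files it was 4.51 and 6.26 points. These medians were not tested against each other. Contig tiles at 20 to 80% had a median SD of 10.2 points (77 tiles), such autosomal tiles 13.3 points (45890 tiles) and such X tiles 9.27 points (1021 tiles). The contigs thus lay below the X tiles over all levels and above them at 20 to 80%. These SDs include the sampling of reads, which cannot be removed where no counts are given.

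The most variable contigs with at least 5 tiles had SDs between bulls of 11.6 to 16.9 points. Single tiles at 20 to 80% listed in all 18 files had median SDs of 10.2 points on the contigs and 13.3 on the autosomes. On chrUn_GJ059960 the bulls ranged from 8.33% in H07 to 70.5% in H04, with a median of 43.8% (16 bulls). On chrUn_GJ059781 they ranged from 49.9% in L02 to 93.7% in H02, with a median of 72.7% (14 bulls). On chrUn_GJ059955 the range was 25% to 67.2%, and on chrUn_GJ059504 26.2% to 64.2%. chrUn_GJ059840, all of whose 5 tiles had the 46-bp spacing, ranged from 0 in H05 to 48.7% in L09, with a median of 39.6%, but this spread rested on H05: the other 10 bulls lay between 28.0 and 48.7%, and without H05 the SD went from 13.2 to 5.81 points. For each of the other 4 contigs, leaving out the bull farthest from the median lowered the SD by less than 1.5 times. These contigs were named for their SD, and bulls listed different tiles of them.

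Adjacent listed positions, such as both strands of a CpG, differed slightly more on the contigs. The mean absolute difference between adjacent positions of a bull was 7.16 to 9.67 points on the contigs and 6.27 to 8.18 points on the autosomes. The ranges overlapped, and the contigs were higher in 17 of 18 bulls, by 1.33 points (permutation test, p = 4e-05, adjusted p = 5.6e-05). At positions under 20 reads in the 6 bulls with counts the difference was 2.37 points. Pairs were not matched for methylation level, and contigs held more tiles at 20 to 80% than autosomes did. The test therefore cannot separate a difference between adjacent positions from the difference in level.

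The trait comparisons asked whether contig tiles differ in methylation between high and low bulls. A logistic model of reads per tile was fitted to all tiles that every bull of a comparison listed, and a tile was called at q under 0.01 and a difference over 5 points. For GL, 88 of 887 contig tiles (9.92%) were called, 47 higher and 41 lower in high GL bulls, beside 8.68% of all 593044 tiles. For SCE, 44 of 596 (7.38%) were called beside 6.14% of all tiles, 13 higher and 31 lower. For BDE it was 114 of 1229 (9.28%) beside 7.47%, 79 higher and 35 lower. For CCR it was 131 of 900 (14.6%) beside 11%, 30 higher and 101 lower, and for SCR 96 of 812 (11.8%) beside 8.68%, 33 higher and 63 lower. Over all tiles the calls were 29251 higher and 22205 lower for GL, 14134 and 18854 for SCE, 25426 and 15691 for BDE, 14255 and 46135 for CCR, and 22709 and 24947 for SCR. The more frequent direction on the contigs was that over all tiles for SCE, BDE, CCR and SCR. The GL calls had no stable direction on the contigs, with 24 higher and 30 lower at a difference over 10 points and 40 higher and 49 lower without L03. At positions listed in both groups they were 34 higher and 17 lower, and without L01 they were 63 and 47. The shares on the contigs were somewhat above those of the whole table for each trait, which was not tested. They were below for SCE with 3 or more positions in every bull (19 of 347, beside 6.60%). The same held for BDE without L03 (93 of 1373, beside 6.89%) and for GL at positions listed in both groups (51 of 3720, beside 1.68%). A contig tile also held more positions, with medians of 14 to 18 per bull against 7 to 10 over all tiles. That model leaves the spread among bulls out. With an F test that includes it, and with limma, 0 contig tiles were called in each of the 5 comparisons, as were 0 tiles of the whole table. At an unadjusted p under 0.05 the F test gave 39 contig tiles for GL (4.40%, beside 4.62% of all tiles), 16 for SCE (2.68% beside 2.63%), 36 for BDE (2.93% beside 3.01%), 59 for CCR (6.56% beside 3.25%) and 38 for SCR (4.68% beside 3.15%). At the same p limma gave 38 for GL (4.28% beside 4.88%), 15 for SCE (2.52% beside 3.78%), 31 for BDE (2.52% beside 4.39%), 31 for CCR (3.44% beside 4.07%) and 19 for SCR (2.34% beside 4.03%). For CCR and SCR the contig share was thus above that of all tiles with the F test and below it with limma.

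Tiles whose groups did not overlap were about as frequent on the contigs as elsewhere, except for CCR, where they were somewhat more frequent. These shares were not tested against each other. The values of the high and the low GL bulls were fully apart in 26 of 887 contig tiles (2.93%), beside 3.30% of all tiles. For SCE it was 56 tiles (9.40%) beside 9.26%, for BDE 128 (10.4%) beside 10.1%, for CCR 114 (12.7%) beside 9.94% and for SCR 83 (10.2%) beside 9.13%.

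Calls by the logistic model were also counted by spacing. The shares of all tiles called, given above, were 8.68% for GL, 6.14% for SCE, 7.47% for BDE, 11% for CCR and 8.68% for SCR. Of the tested contig tiles with 23-bp spacing, 0 of 103 were called for GL, 1 of 75 for SCE (1.33%), 2 of 215 for BDE (0.930%), 7 of 128 for CCR (5.47%) and 7 of 142 for SCR (4.93%). Of the tested contig tiles without either spacing, 88 of 783 were called for GL (11.2%), 41 of 499 for SCE (8.22%), 112 of 1013 for BDE (11.1%), 124 of 771 for CCR (16.1%) and 89 of 669 for SCR (13.3%). The difference between these shares was not tested, and a call needs a difference over 5 points. Contig tiles at 0 to 20% listed in all 18 files had a median SD between bulls of 2.47 points, beside 10.2 at 20 to 80%. Median differences of the 23-bp tiles were -0.54 points for GL, -1.75 for SCE, -0.10 for BDE, -1.48 for CCR and -1.08 for SCR. Without either spacing they were 0.48, -0.18, 0.91, -1.22 and -0.51. Fewer calls thus do not show that the 23-bp tiles were more alike between groups. Tiles with 46-bp spacing were hardly testable, because 1 of the 194 was listed in every bull of the GL, BDE, CCR and SCR comparisons each and 22 in every bull of SCE, of which 2 were called (9.09%, beside 6.14% of all tiles). L03, which listed 3 of these tiles, is in the GL, BDE and SCR comparisons.

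Mean levels over the contig tiles did not separate the groups beyond the spread between bulls, except that the CCR groups did not overlap. For CCR the high bulls H08, H09 and L06 had 67.8%, 67.1% and 64.2% over 900 tiles, and the low bulls H06, L08 and L09 had 69.2%, 68.4% and 68.5%. All 3 high bulls lay below all 3 low bulls, by 2.32 points in the mean (exact permutation test, two-sided, p = 0.1, the smallest that 3 against 3 allow; adjusted p = 0.5). The autosomal means of the same bulls differed by 1.43 points in the same direction. L06 was the lowest bull on both, and without it the contig difference was -1.21 points. For GL the high bulls had 66.9 to 69.5% and the low bulls 66.5 to 68.2% over 887 tiles, a difference of 0.41 points (exact permutation test, 4 against 4, p = 0.657, adjusted p = 0.7). The differences were -0.39 points for SCE, 1.14 for BDE and -0.97 for SCR (exact permutation tests, 3 against 3, p = 0.7, 0.4 and 0.3).

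The largest called loss and gain with separate groups are given for each trait. For GL the largest loss was in chrUn_GJ058430 from 144001 to 146000, where the high bulls H03, H09, L03 and L05 had 21.6%, 5.34%, 14.2% and 22.67% and the low bulls H02, H05, L01 and L07 had 34.7%, 35.9%, 42.5% and 46.23%. Each bull listed 8 to 32 positions in it. The largest gain was in chrUn_GJ058422 from 78001 to 80000, with 66.3%, 71.3%, 67.5% and 83.6% in the high bulls and 42.6%, 45.6%, 39.3% and 37.8% in the low bulls. At positions listed in both groups that gain was gone, at -0.84 points, while the loss remained at -14.7 points. Thus only the loss kept its direction at positions that both groups listed.

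For SCE the largest loss was in chrUn_GJ058435 from 44001 to 46000, with 56.6%, 65.0% and 33.3% in the high bulls H03, H07 and L02 and 96.7%, 76.1% and 92.3% in the low bulls H01, H06 and L09. At shared positions it was -43.1 points. The tile of chrUn_GJ059766 from 50001 to 52000 was the largest gain of both SCE and CCR, which share H06 and L09 as low bulls. Its high SCE bulls had 72.1%, 98.0% and 63.2%, its high CCR bulls H08, H09 and L06 had 78.1%, 69.3% and 69.95%, and H06 and L09 had 37.3% and 37.7%. The third low bull was H01 for SCE, at 57.1%, and L08 for CCR, at 64.6%. At shared positions the difference was -6.52 points for SCE and 17.4 points for CCR.

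For BDE the largest gain was in chrUn_GJ058444 from 30001 to 32000, with 91.7%, 85.0% and 87.6% in the high bulls H02, L03 and L08 and 32.9%, 56.6% and 57.0% in the low bulls H05, H09 and L02. It was 3.57 points at shared positions. The largest BDE loss (chrUn_GJ058422, 64001 to 66000, -22.3 points) and the largest CCR loss (chrUn_GJ058423, 6001 to 8000, -43.4 points) were -1.51 and -3.33 points at shared positions. The -22.3 and -43.4 points pool the positions of a group's bulls, and the means of the bulls' values lay closer. For the BDE loss these means were 56.9% (high) and 73.5% (low), with L08 at 66.6% and H09 at 68.0% nearest. For the CCR loss they were 14.7% and 51.0%, with H08 at 21.9% and L08 at 25.8% nearest. For SCR the largest gain, in chrUn_GJ059981 from 4001 to 6000, had 100%, 95.3% and 96.5% in H01, H02 and H03 and 80.6%, 72.0% and 84.0% in L01, L02 and L03, and 12.7 points at shared positions. The largest SCR loss (chrUn_GJ058430, 166001 to 168000, -26.6 points) was -4.12 points there. Its -26.6 points are also pooled, beside means of the bulls' values of 56.5% (high) and 79.4% (low). These tiles were chosen for their differences, none was called by the F test or limma, and in all of them but the GL loss the bull with the fewest positions listed 1 to 4.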

How the data were processed

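Sperm DNA of 18 Holstein bulls was sequenced after bisulfite treatment. Per the labels and the methods of the study, the authors trimmed reads with Trim Galore 0.4.0, mapped them to UMD 3.1 with Bowtie2 and extracted methylation with Bismark 0.14.5. The authors deposited, for positions with at least 10 reads and separately by strand, the percent of reads that were methylated. For 6 bulls the deposited files also hold the count of reads, between 10 and 100. For the other 12 bulls the depth at a position is not known, so no counting interval was given. How reads with several matches were treated is not given in the sources used here, and copies of a repeat can share reads. The bulls listed 2858992 to 22048556 positions. No sequence and no annotation of this build was used here.

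Percents were averaged per 2000-bp tile and bull. Contigs and autosomes were compared within bulls by sign-flip permutation (SciPy 1.17.1), with Benjamini-Hochberg adjustment. Trait groups were compared by a logistic likelihood ratio test per tile over all tiles listed in every bull of the comparison, with each position counted as 10 reads except for SCR, whose 6 bulls have deposited counts. A tile's difference was taken between the pooled reads of the groups, so bulls with more listed positions weighed more. The q values scale Benjamini-Hochberg values by the share of true nulls, a simplified SLIM. An F test with overdispersion, limma 3.58.1 and a Cochran-Mantel-Haenszel test at shared positions were alternatives. CpG spacing was scored per tile over periods of 10 to 61.75 bp, and the shorter of a period and its multiple was taken where it reached 90% of the best ratio. Tests were tried on simulated data. For the tile tests the simulated reads held no spread between bulls, so the trial does not give their rate of false calls here. Bulls are the replicates, 1 library each. Contigs named were the 5 with most tiles and, with at least 5 tiles, the 5 lowest, highest, most variable and deepest; tiles named were the 5 lowest and, per trait, the largest called loss and gain with separate groups. The members, lists and rules were chosen with earlier results of these data known.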

Additional observations from a re-analysis of the deposited data

How the results depend on the processing

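The differences between contigs and autosomes kept their direction under all 42 alternatives run on the within-bull measures. Those in methylation and between adjacent positions, the measures given with a test, also stayed past the threshold. None of the alternatives compared the methylation of deep positions alone. At 50 to 100 reads contig positions were higher than autosomal ones in H01, H03, L01, L02 and L03 and lower in H02. Over the alternatives the mean difference lay between -53.7 and -16.2 points, the share under 20% between 14.8 and 52.2 points higher, and the share from 20 to 80% between 6.62 and 16.9 points higher. A spacing ratio of 2 in place of 3 gave 454 tiles with 23-bp and 202 with 46-bp spacing, with medians of 15.7% and 42.9%. Trait calls did change. With the F test or limma 0 contig tiles were called for any trait. A difference over 10 points gave 54 contig tiles for GL (4.88% of all tiles were called), 30 for SCE (4.62%), 71 for BDE (5.48%), 84 for CCR (7.04%) and 53 for SCR (5.64%). The Cochran-Mantel-Haenszel test at shared positions, which tests other tiles, called 51 of 3720 contig tiles for GL (beside 1.68% of all tiles), 54 of 3364 for SCE (1.03%), 39 of 3281 for BDE (1.11%), 154 of 3523 for CCR (3.13%) and 116 of 2671 for SCR (2.01%). The contig share was there below that of all tiles for GL and above it for the other traits. With 3 or more positions in every bull there were 19 of 347 for SCE (beside 6.60%) and 59 of 533 for SCR (9.33%), and with 10 reads per position 55 for SCR (6.01%). Leaving out 1 bull gave 80 to 110 of 891 to 1144 contig tiles for GL (beside 7.74 to 9.05% of all tiles), 39 to 77 of 605 to 1068 for SCE (6.13 to 6.76%), 93 to 117 of 1239 to 1481 for BDE (6.89 to 7.68%), 112 to 204 of 911 to 1169 for CCR (8.47 to 16.8%) and 90 to 146 of 823 to 1152 for SCR (8.47 to 9.38%); the counts changed by over 1.5 times without H07 (SCE, 77 of 1068 tested in place of 44 of 596, beside 6.13% of all tiles), without H08 (CCR, 204 of 1169 in place of 131 of 900, beside 16.8%) and without L01 (SCR, 146 of 1152 in place of 96 of 812, beside 9.26%). The ranges of counts and of tested tiles are not paired. For BDE without L03 it was 93 of 1373 contig tiles, a share below the 6.89% of all tiles. After subtracting autosomal means the mean differences were -0.147 points for GL, -0.391 for SCE, 0.456 for BDE, -0.890 for CCR and -0.459 for SCR. The mean GL difference was -0.163 to 0.697 with 1 bull left out, negative without L03. The mean SCE difference was -0.719 to 0.162, positive without H06; BDE gave 0.506 to 1.77, CCR -3.05 to -1.21 (without L06) and SCR -1.31 to -0.441. At shared positions the named GL gain became -0.844 and the named SCE gain -6.52 points. The GL calls were more often lower than higher at a difference over 10 points (24 higher, 30 lower), with 3 or more positions (35, 37), without L03 (40, 49) and without H05 (40, 45), and were evenly split without L05 (40, 40). In the other settings that called tiles they were more often higher, such as at shared positions (34, 17) and without L01 (63, 47). No paired analysis was possible because the labels put each bull in the study once and give no numbers that pair high with low bulls. Read depth was given for 6 of the 18 bulls, so precision per position is not known for the others. Alternatives that split bulls by contigs listed, leave out spaced tiles or use a ratio of 2 were chosen after seeing the data.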
